A study of Mus musculus with 12 samples.

Results

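The 56 genes described here are clustered histone genes of the mouse together with H1f0, the gene of linker histone H1.0. They were taken by symbol from the 35321 genes of the deposited gene table: H1f0 to H1f5, and every symbol made of H2ac, H2bc, H3c or H4c and a number. A further 8 listed genes have symbols that begin with Hist1h, fall outside this rule and were not included. H1f0 is set beside the other 55, which comprise 5 genes of linker histone H1, 14 of H2A, 14 of H2B, 12 of H3 and 10 of H4. Of the 55, 45 lie on chromosome 13 between 21715763 and 23934851 and 10 on chromosome 3 between 96219865 and 96270132, whereas H1f0 lies alone on chromosome 15 (chr15:79028450-79030504, plus strand, ENSMUSG00000096210). Coordinates are those of GRCm38, in which all 56 listed positions fall within 5 kb of the GENCODE M21 gene with the same identifier.

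RNA came from C17.2 cells, an established neural stem cell line of the mouse from strain CD1 x C57BL/6, per the labels. The cells were grown in DMEM/F12 with serum, and neural induction was started by culture in Knockout DMEM that held GlutaMAX and the N2 supplement. Mitochondria and nuclei were isolated before induction (0 h) and 1 and 2 h into it, and each gave its own libraries, 2 of each, which gives 6 groups and 12 libraries, all of them labelled as neural induction. No library came from cells kept in growth medium for 1 or 2 h, so the effects of induction, of serum loss and of the change of medium cannot be told apart. The 2 libraries of a group are given as biological replicates, with no word on separate cultures, so p-values measure only the spread between these libraries, which may be technical. Whether reads could be told by strand is not given in the sources used here.

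Nucleosomes wrap DNA around an octamer of the core histones H2A, H2B, H3 and H4, and a linker histone H1 binds where the DNA enters and leaves. Most of these proteins come from clustered genes that are switched on as DNA replicates, and their mRNAs end in a conserved stem-loop in place of a poly(A) tail, which the stem-loop binding protein holds during processing, translation and decay. H1f0 is transcribed outside S phase from a polyadenylated mRNA, and its protein is known to accumulate as cells leave the cycle and differentiate. RNA here was depleted of ribosomal RNA, per the labels' protocols, and not selected by poly(A), so both kinds of mRNA could enter the libraries.

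The stem-loop, the known mark of replication-dependent histone mRNA, is shown for 6 genes whose values are given below, in GRCm38 coordinates, with 5 bases on either side and the 16 bases of the stem-loop in capitals.
H1f4 (chr13:23621777-23621802, minus strand): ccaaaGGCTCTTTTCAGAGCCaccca
H2ac20 (chr3:96220413-96220438, minus strand): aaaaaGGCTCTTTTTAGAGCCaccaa
H2bc8 (chr13:23571838-23571863, plus strand): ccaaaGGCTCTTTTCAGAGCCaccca
H3c4 (chr13:23576239-23576264, plus strand): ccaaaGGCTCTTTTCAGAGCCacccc
H4c4 (chr13:23581945-23581970, plus strand): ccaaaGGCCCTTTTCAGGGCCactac
H4c14 (chr3:96262934-96262959, minus strand): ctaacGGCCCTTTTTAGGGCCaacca
The histone stem-loop was sought on the transcript strand of every GENCODE M21 transcript, as a 16-base pattern with the bases of its conserved positions fixed and the others free. It was present in 37 of the 56 genes and in 201 of all 55450 annotated genes (0.362%). A single 16-base form was shared by 21 of the 37, drawn from H1, H2A, H2B and H3, and the 9 H4 genes with the motif had 4 other forms, which keep the outer GG and CC of the stem and differ in inner stem or loop bases. Of the 19 genes without a match, 12 have transcripts annotated to no more than 3 bases past the coding part, so the region that would hold the motif lies outside them. The 2055-base transcript of H1f0 held no match, and neither did those of H2bc21, H2bc4, H1f1 and H3c13, which are annotated 2195, 745, 51 and 40 bases past the coding part. In the 37 genes the motif began 25 to 62 bases past the last coding base. Transcripts of H1f1 and H3c13, and those of H2ac10 and H2ac12 with 4 and 5 bases, may thus end too early to hold it.

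Each library was scaled to between 30260000 and 42290000 reads, of which 13.9% to 21.88% lay inside listed genes. The histone genes took 43329 to 70304 reads per library, which was 0.676% to 0.79% of the reads inside genes at 0 h and 0.958% to 1.263% at 1 and 2 h. In such bulk samples fewer cells of a type and less RNA per cell cannot be told apart. Levels are given in reads per 1000000 reads of the library (RPM), which the authors deposited on a log2 scale. On that scale most genes of the table fell with time, with a median log2 fold change against 0 h of -0.22 and -0.28 in mitochondria and -0.64 and -0.51 in nuclei at 1 and 2 h. Fold changes are therefore given after quantile normalization, which gives all libraries the same distribution of values and so removes that shift, and they are relative to the other genes, and deposited-scale values stand beside them. Tests were made with limma over 21078 genes, and a gene was called at a Benjamini-Hochberg adjusted p below 0.05. In mitochondria replicate 2 of 0 h and replicate 1 of 1 h, and in nuclei replicate 1 of both times, stood apart from the other 8 libraries in genes with processed pseudogene copies. The neural progenitor markers summed to 650 to 704 RPM at 0 h and 446 to 573 RPM later, with Nes and Vim at 97.2 to 161 and 324 to 533 RPM, whereas Pax6 and Prom1 had at most 3 reads in a library. The 4 fibroblast or mesenchymal markers, among them the collagen gene Col1a1, summed to 2090 to 2970 RPM at 0 h and 1400 to 1860 RPM later. Astrocyte and microglia markers summed to at most 1.45 and 0.409 RPM, neuron markers to 9.88 to 21.4 RPM with Dcx at 0 in all libraries, and oligodendrocyte markers to 73.9 to 99.7 RPM in mitochondria. In nuclei the oligodendrocyte markers summed to 89.8 to 90.9 RPM at 0 h and 56.2 to 61.7 RPM later, and the neuron markers to 17.6 to 17.7 RPM at 0 h and 9.88 to 16.9 RPM later. These sums are on the deposited scale, on which most genes fell, and the part of the fibroblast, progenitor, oligodendrocyte and neuron markers in the results was not tested.

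Relative to the other genes, 20 of the 56 histone genes rose within 1 h in mitochondria and 16 in nuclei, and limma called 0 of the 56 lower in each of the 11 comparisons (0 to 5 at an unadjusted p below 0.05). Of all tested genes, 3.74%, 6.78% and 2.12% were called lower in mitochondria at 1 h and 2 h against 0 h and 2 h against 1 h, and 0.816%, 5.55% and 1.27% in nuclei. Lower in mitochondria than in nuclei were 0.882%, 2.23% and 1.6% at the 3 times, and 0.892% and 0% in the tests of the difference of effects. At 1 h 2.24% of all tested genes were called higher in mitochondria and 1.01% in nuclei. At 2 h 34 of the 56 rose in mitochondria and 23 in nuclei, beside 4.66% and 4.65% of all genes. The median log2 fold change of the 56 was 0.43 by 1 h and 0.70 by 2 h in mitochondria and 0.34 and 0.41 in nuclei, where that of all tested genes lay between -0.001 and 0. From 1 to 2 h, 4 histone genes rose in mitochondria (1.61% of all genes) and 2 in nuclei (1.16%), and the medians were 0.205 and -0.02. The 2 in nuclei were H1f0 and H2bc1, and H2bc1 had at most 6 reads in any library. H2bc1 is also counted in the 20 and 34 called in mitochondria.

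On the deposited scale the median for mitochondria was 0.09 after 1 h and 0.38 after 2 h, and the nuclear medians, -0.32 and -0.13, were below 0. In nuclei at 1 h 3 were called higher and 20 lower, and at 2 h 8 higher and 12 lower, where 0.508% and 1.59% of all genes were called higher and 48% and 38.1% lower. In mitochondria 10 were called higher and 2 lower at 1 h, and 20 higher and 2 lower at 2 h, beside 0.702% and 1.7% of all genes called higher and 17.9% and 25.5% called lower. Scaled to the reads inside genes, 20, 34, 13 and 23 were called higher in these 4 comparisons (2.59%, 5.28%, 1.03% and 4.59% of all genes higher), and median centring gave 19, 30, 27 and 22 (2.77%, 4.07%, 8.22% and 4.86%). Without the 4 libraries that stood apart, which leaves 1 library at each of 0 and 1 h in both fractions, the medians were 0.59 and 0.87 in mitochondria and 0.40 and 0.40 in nuclei, and limma called 0, 2, 0 and 0 of the 56, where H4c14 and H1f1 were the 2. Single libraries also set the counts. At 1 h in mitochondria 10 were called without replicate 1 of 0 h, 10 without replicate 1 of 1 h and 12 without replicate 2 of 1 h. At 2 h 19 were called without replicate 1 of 0 h and 19 without replicate 2 of 2 h. In nuclei 7, 6 and 10 were called at 1 h without 0 h replicate 1, 0 h replicate 2 or 1 h replicate 2, and 13, 15 and 11 at 2 h without 0 h replicate 1, 0 h replicate 2 or 2 h replicate 2.

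**Figure D1:**
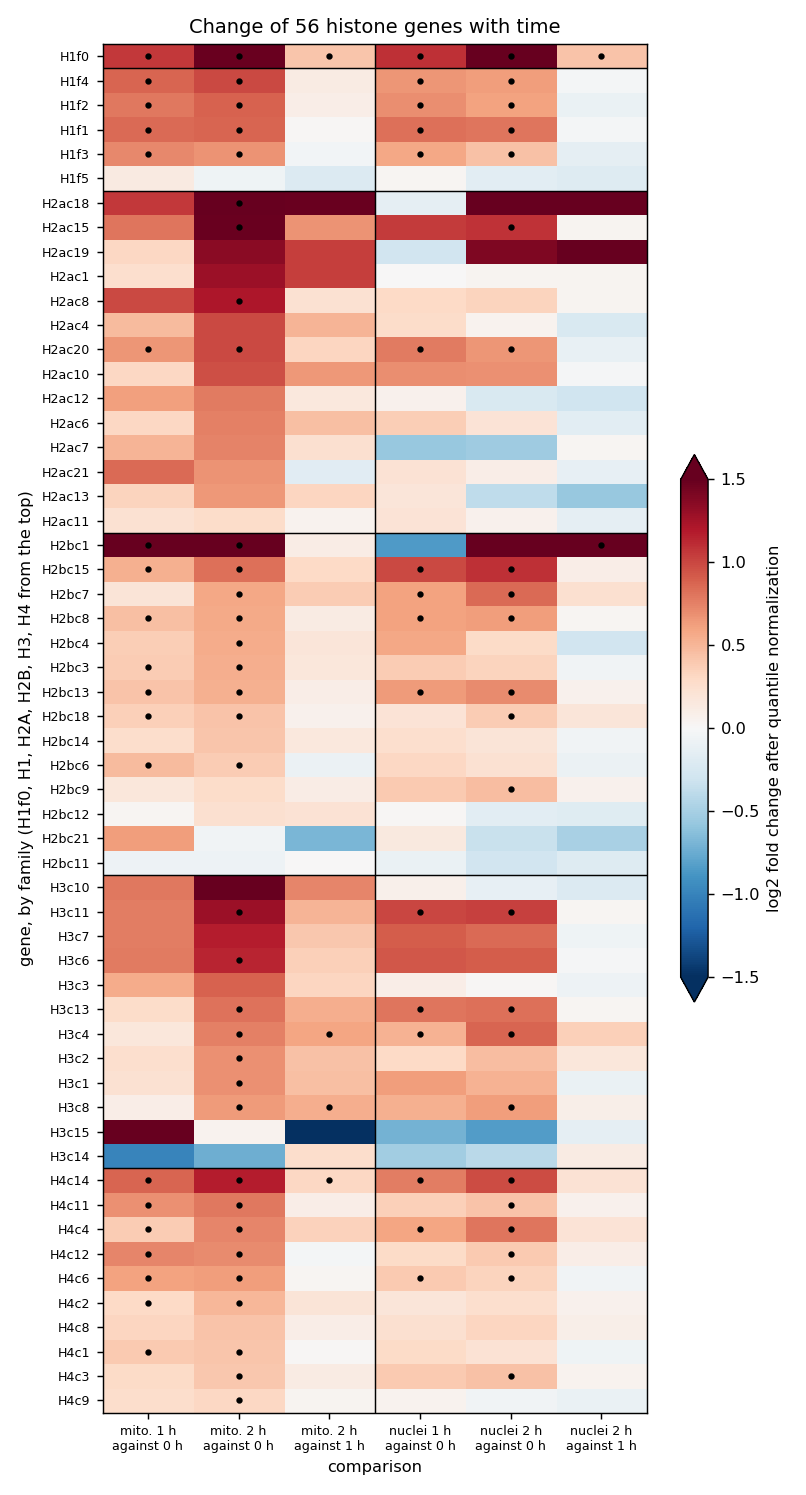
Log2 fold change of each of the 56 histone genes (rows, grouped by family) in the 6 time comparisons (columns), after quantile normalization; colours saturate at 1.5 and a black dot marks a gene called at an adjusted p below 0.05. H1f0 in the top row has a dot in all 6 columns, while most other dots lie in the columns against 0 h.

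H1f0 rose in both fractions at both times, and went on rising between 1 and 2 h. Its level in mitochondria was 33.9 and 31.0 RPM at 0 h, 53.4 and 53.8 RPM at 1 h, and 70.5 and 75.2 RPM at 2 h. In nuclei it was 37.3 and 37.4 RPM at 0 h, 50.2 and 47.4 RPM at 1 h, and 71.3 and 75.2 RPM at 2 h. The libraries of the 3 times did not overlap in either fraction, and each later time lay above the earlier one on this scale, without any shift for the general fall. Relative to the other genes, the log2 fold change in mitochondria was 1.06 ± 0.08 (SE, n = 2 per group) at 1 h and 1.48 ± 0.08 at 2 h, with limma adjusted p of 2.4e-05 and 5.6e-07. In nuclei it was 1.09 ± 0.08 at 1 h and 1.53 ± 0.08 at 2 h, with limma adjusted p of 2.0e-05 and 5.2e-07. From 1 to 2 h it rose by 0.42 ± 0.08 in mitochondria (limma adjusted p = 0.013) and 0.43 ± 0.08 in nuclei (limma adjusted p = 0.014).

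H1f0 was the only 1 of the 46 histone genes with a mean of 100 reads or more that was called higher from 1 to 2 h in both fractions. By size of the 2 h change it ranked 1 of these 46 in nuclei and 3 in mitochondria, behind H3c10 and H2ac15. On the deposited scale it was called higher against 0 h in all 4 comparisons too, with log2 fold changes of 0.73 and 1.17 in mitochondria and 0.39 and 0.97 in nuclei. Without the 4 libraries that stood apart the values against 0 h were 1.07 and 1.53 in mitochondria and 1.06 and 1.57 in nuclei, none past the threshold in that fit (limma adjusted p of 0.08 to 0.3). Over 25 other settings the calls against 0 h held in 23 and 23 in mitochondria and 23 and 24 in nuclei, and those from 1 to 2 h in 18 and 19. None of the 50-base windows of its transcript is shared with another annotated gene, but its listed span overlaps that of Gm49544, and without strand the reads of overlapping genes cannot be told apart.

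Promoters of 3 H1 genes are shown because their values with time are given in full: H1f0, and H1f4 and H1f5 of the clustered linker genes. Each is the 250 bases before the gene's start in RefSeq (GRCm38.p6), and capitals mark AAACACA (the H1 box), CCAAT and TATAAA on either strand.
H1f0 (chr15:79027962-79028211, plus strand): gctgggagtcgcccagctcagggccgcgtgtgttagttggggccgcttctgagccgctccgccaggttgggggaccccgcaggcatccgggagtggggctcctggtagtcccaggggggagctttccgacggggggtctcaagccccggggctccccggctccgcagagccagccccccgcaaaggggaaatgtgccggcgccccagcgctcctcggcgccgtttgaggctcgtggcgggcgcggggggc
H1f4 (chr13:23622559-23622808, minus strand): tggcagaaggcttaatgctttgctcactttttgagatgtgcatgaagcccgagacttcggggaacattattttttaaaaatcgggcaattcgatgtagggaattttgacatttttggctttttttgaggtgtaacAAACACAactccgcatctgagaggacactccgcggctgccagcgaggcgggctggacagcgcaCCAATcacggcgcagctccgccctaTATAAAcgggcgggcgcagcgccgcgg
H1f5 (chr13:21780626-21780875, minus strand): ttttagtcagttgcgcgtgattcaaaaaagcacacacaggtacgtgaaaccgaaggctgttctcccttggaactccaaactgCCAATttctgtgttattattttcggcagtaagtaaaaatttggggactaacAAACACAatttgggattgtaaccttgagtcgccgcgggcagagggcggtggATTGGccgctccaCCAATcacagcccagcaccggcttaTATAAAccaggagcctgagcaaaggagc
Of the 56 genes, 51 have a window in the RefSeq table, which runs from 250 bases before to 50 after the start. AAACACA occurred in 4 of the 5 windows of H1f1 to H1f5 and in 7.18% of all 32851 windows, CCAAT in all 5 and in 37.4%, and TATAAA in 4 and in 13.6%. In H1f2, H1f3, H1f4 and H1f5 the H1 box began 112 to 122 bases before the start and a CCAAT 51 to 54 bases before it. None of these letters occurred in the H1f0 window, whose RefSeq start lies 238 bases upstream of the start listed in the gene table. That window ends 50 bases past the RefSeq start, so the bases directly before the listed start were not searched. Whether H1f0 has these motifs there cannot be told from it. Over all 51 genes, CCAAT was found in 86.3% of windows, TATAAA in 58.8%, and the octamer ATTTGCAT in 23.5%, against 1.74% of all windows, with 6 of 14 H2A and 6 of 12 H2B genes and no gene of H1, H3 or H4.

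Of the replication-dependent linker genes, H1f1, H1f2, H1f3 and H1f4 each rose by 1 h and were not called between 1 and 2 h, and H1f5 was not called in any comparison after quantile normalization. Whether their change differed from that of H1f0 was not tested. H1f4, which encodes H1.4, one of the abundant somatic linker histones, was read at 134 and 130 RPM at 0 h, 176 and 174 RPM at 1 h, and 200.2 and 191 RPM at 2 h in mitochondria. Its levels in nuclei were 136 and 137 RPM, then 154 and 143 RPM, then 151 and 156 RPM. The later libraries lay above those of 0 h in both fractions, and in nuclei those of 1 and 2 h overlapped. The log2 fold change of H1f4 in mitochondria was 0.87 ± 0.06 at 1 h and 0.99 ± 0.06 at 2 h (limma adjusted p of 2.4e-05 and 3.0e-06), and in nuclei 0.66 ± 0.06 and 0.63 ± 0.06 (limma adjusted p of 0.00021 and 0.00013). Between 1 and 2 h it was 0.12 ± 0.06 in mitochondria and -0.03 ± 0.06 in nuclei.

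H1f1, H1f2 and H1f3, which encode H1.1, H1.2 and H1.3, had log2 fold changes of 0.85, 0.79 and 0.72 in mitochondria and 0.83, 0.70 and 0.58 in nuclei at 1 h, all called. Their values at 2 h were 0.87, 0.89 and 0.68 in mitochondria and 0.80, 0.60 and 0.45 in nuclei, again all called. On the deposited scale all of H1f1 to H1f4 were called higher in mitochondria at both times, and 1 in nuclei at 1 h and 2 at 2 h, with none lower. From 1 to 2 h the log2 fold changes of H1f1 to H1f4 lay between -0.13 and 0.12, beside 0.42 and 0.43 for H1f0.

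H1f5, the gene of H1.5, was read at 91.1 and 85.7 RPM at 0 h, 76.2 and 76.3 RPM at 1 h, and 70.6 and 62.3 RPM at 2 h in mitochondria. In nuclei it was read at 86.4 and 81.1 RPM, then 57.0 and 53.8 RPM, then 56.1 and 52.1 RPM. Its libraries at 2 h lay below those of 0 h in both fractions without overlap. Relative to the other genes this came to 0.14 ± 0.08 by 1 h and -0.07 ± 0.08 by 2 h in mitochondria, and 0.03 ± 0.08 and -0.16 ± 0.08 in nuclei, with limma adjusted p of 0.24 to 0.98. On the deposited scale H1f5 was called lower in nuclei at 1 and 2 h (-0.60 and -0.63) and in mitochondria at 2 h (-0.41), so its call depends on the scale.

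**Figure D2:**
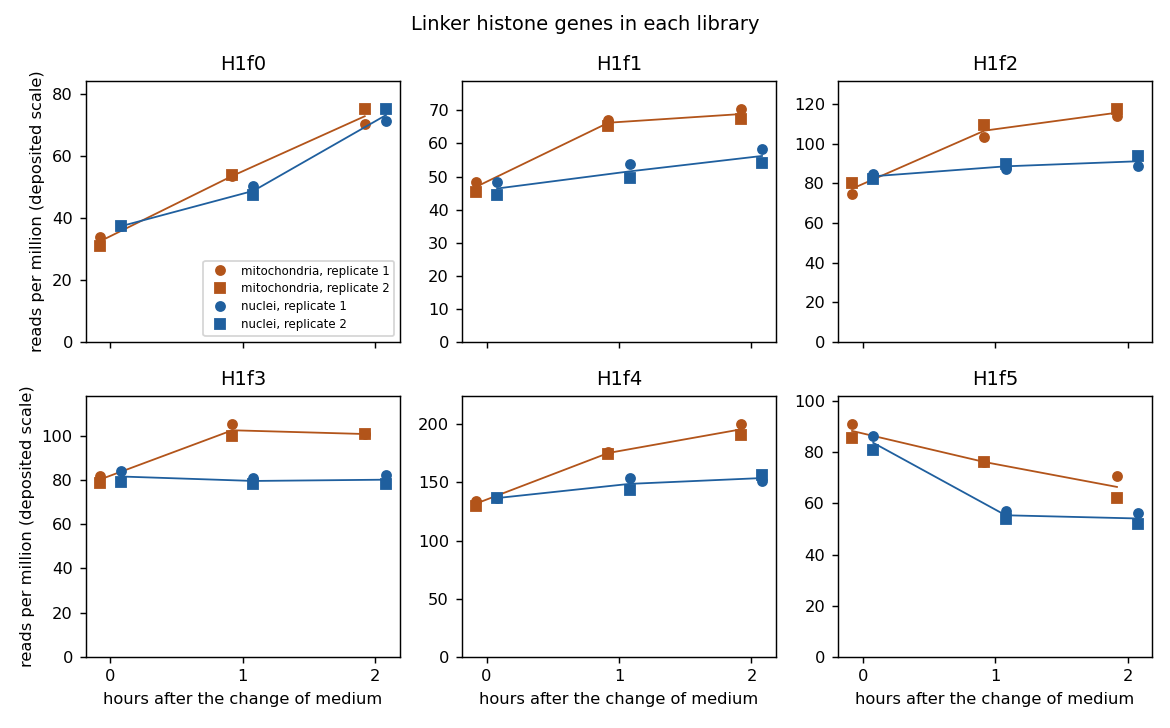
RPM on the deposited scale (y axis, from 0) of the 6 linker histone genes in each library by hours after the change of medium; circles and squares are replicates 1 and 2 and lines join the means of 2 libraries. H1f0 climbs at each step in both fractions, nuclear H1f1 has means of 46.4, 51.6 and 56.2 RPM and nuclear H1f3 of 81.7, 79.6 and 80.2 RPM at the 3 times, and H1f5 lies at 81.1 to 91.1 RPM at 0 h and 52.1 to 70.6 RPM at 2 h.

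A share of reads within a library does not depend on how libraries are scaled. H1f0 held 7.09% ± 0.311 (SD, n = 2) of the reads of the 6 linker genes in mitochondria at 0 h, 9.22% ± 0.0778 at 1 h and 11.8% ± 0.636 at 2 h. In nuclei its share was 7.96% ± 0.212, then 10.3% ± 0.141, then 14.4% ± 0.566. The share of H1f5 went the other way, from 19.4% ± 0.495 to 13.2% ± 0.0707 and 10.7% ± 0.849 in mitochondria and from 17.8% ± 0.354 to 11.7% ± 0.141 and 10.6% ± 0.566 in nuclei. No library of a later time overlapped one of 0 h for either gene. With 2 libraries against 2, an exact permutation test cannot reach the threshold, so these shares are given without a test. H1f4, whose listed span overlaps the end of that of H2bc6, was the most read linker gene, at 28.8% ± 0.0707 to 31.5% ± 0.566 of the reads in the 6 groups. These are shares of reads and not of molecules, since the genes differ in length.

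**Figure D3:**
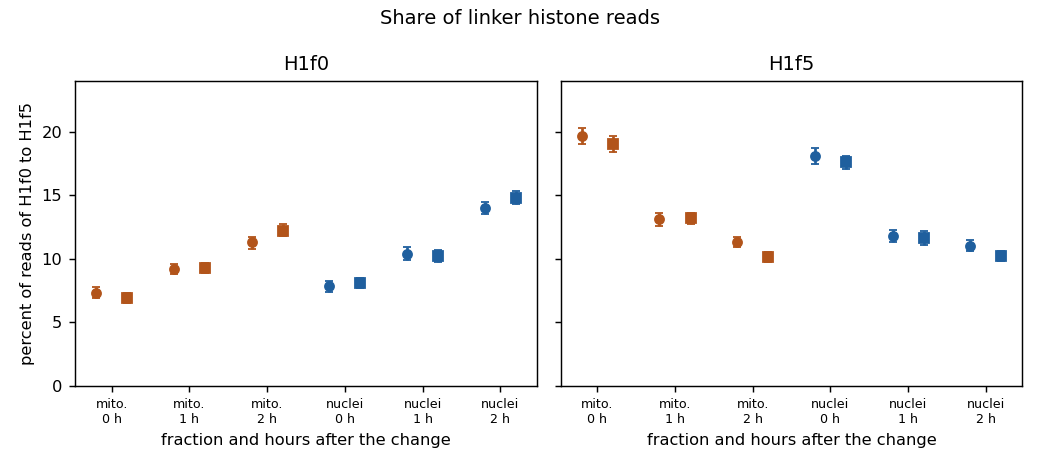
Percent of the reads of H1f0 to H1f5 that fell on H1f0 (left) and on H1f5 (right) in each library, with exact 95% binomial intervals that cover counting error only; circles and squares are replicates 1 and 2. The H1f0 share rises from 7.09% to 11.8% in mitochondria and from 7.96% to 14.4% in nuclei between 0 and 2 h, and the H1f5 share is lower at 2 h than at 0 h in both.

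Of the 14 genes of H2A, 1 rose by 1 h and 4 by 2 h in mitochondria, and 1 and 2 in nuclei. Their median log2 fold change was 0.50 and 0.98 in mitochondria and 0.21 and 0.15 in nuclei, and on the deposited scale the nuclear medians were negative (-0.46 and -0.29). H2ac15, on chromosome 13 (chr13:21753435-21753827, minus strand), had the highest level per length of this family, 99.3 RPM per kb of listed span. It was read at 24 and 30.0 RPM at 0 h, 32.7 and 42.2 RPM at 1 h, and 55.7 and 66.2 RPM at 2 h in mitochondria. In nuclei the values were 27.5 and 31.3 RPM, then 34.6 and 40.8 RPM, then 35.1 and 48.4 RPM. Its log2 fold change at 2 h was 1.48 ± 0.22 in mitochondria (limma adjusted p = 0.0038) and 1.08 ± 0.22 in nuclei (limma adjusted p = 0.016), and at 1 h it did not pass in either, at 0.81 ± 0.22 and 1.04 ± 0.22.

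H2ac20, on chromosome 3, was read at 24.8 and 28.8 RPM at 0 h, 31.5 and 36.4 RPM at 1 h, and 41.7 and 42.3 RPM at 2 h in mitochondria, where no times overlapped. In nuclei its RPM was 28.3 and 32.5 at 0 h, 28.1 and 37.3 after 1 h and 28.7 and 36.7 after 2 h, and the times overlapped. It was the H2A gene called in all 4 comparisons against 0 h, with log2 fold changes of 0.66 and 0.99 in mitochondria and 0.78 and 0.67 in nuclei. H2ac4, at 19.9 RPM per kb, was not called, at 0.99 ± 0.38 in mitochondria and 0.05 ± 0.38 in nuclei at 2 h. Replicate 2 of H2ac4 was the higher in all 6 groups, which is described for the whole family further on.

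Of the 14 genes of H2B, 7 rose by 1 h and 9 by 2 h in mitochondria, and 4 and 6 in nuclei. On the deposited scale the nuclear calls were 1 higher and 8 lower at 1 h, and 1 higher and 6 lower at 2 h. Of all genes, 48% and 38.1% were called lower there and 0.508% and 1.59% higher. H2bc18 on chromosome 3 had the highest level per listed length of all 56, at 235 RPM per kb. Its listed span of 381 bases holds 378 coding bases, whereas that of H4c4 holds 309 in 1138 bases. Levels per length thus depend on the annotated ends. H2bc18 shares 53.6% of its 50-base windows with other genes, and its span overlaps those of Gm20628 and Gm42743. It was read at 96.4 and 94.4 RPM at 0 h, 98.8 and 92.4 RPM at 1 h, and 102 and 97.5 RPM at 2 h in mitochondria. In nuclei the values were 93.5 and 89.1 RPM, then 71.0 and 65.9 RPM, then 90.7 and 81.8 RPM. On the deposited scale its libraries overlapped between times in mitochondria and were lowest at 1 h in nuclei. Its log2 fold change was 0.36 ± 0.09 by 1 h and 0.43 ± 0.09 by 2 h in mitochondria, both called, and 0.20 ± 0.09 and 0.39 ± 0.09 in nuclei, the latter called, where the deposited scale gave -0.41 and -0.08. H2bc8 was called in all 4 comparisons, at 0.45 and 0.57 in mitochondria and 0.61 and 0.63 in nuclei, with -0.06 at 1 h in nuclei on the deposited scale. H2bc3 was called in mitochondria alone, at 0.38 ± 0.10 and 0.55 ± 0.10, with 0.39 ± 0.10 and 0.34 ± 0.10 in nuclei (-0.29 and -0.24 on the deposited scale), a difference between the fractions that did not pass its own test.

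H2bc15, which shares a divergent arrangement with H2ac15 over 296 bases, was read at 20.7 and 20.1 RPM at 0 h, 24.6 and 22.2 RPM at 1 h, and 29.0 and 27.0 RPM at 2 h in mitochondria. In nuclei it was read at 16 and 14.4 RPM, then 18.5 and 18.4 RPM, then 21.5 and 21.1 RPM. Every later time lay above the earlier one in both fractions on the deposited scale. The log2 fold change was 0.54 ± 0.08 and 0.83 ± 0.08 in mitochondria (limma adjusted p of 0.0028 and 0.00013), and 0.99 ± 0.08 and 1.09 ± 0.08 in nuclei (limma adjusted p of 8.2e-05 and 1.4e-05). H2bc15 shares 86.5% of its 50-base windows with other genes, so part of its reads may belong to a copy. H2bc11 had the lowest value of the H2B genes with a mean of 100 reads at 2 h, at -0.08 ± 0.12 in mitochondria and -0.29 ± 0.12 in nuclei, and was not called.

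Of the 12 genes of H3, 7 rose at 2 h in mitochondria, and 3 and 4 rose at 1 and 2 h in nuclei. At 1 h in mitochondria limma called 0 of the 12 (2 higher and 1 lower at an unadjusted p below 0.05), with a median of 0.42. On the deposited scale 1 was called lower there and 2 lower at 1 h in nuclei, beside 17.9% and 48% of all genes. In mitochondria H3c4 was read at 29.0 and 29.5 RPM at 0 h and 26.1 and 25.7 RPM at 1 h. At 2 h it was read at 39.1 and 38.0 RPM there, so the highest libraries were those of 2 h and the lowest those of 1 h. The log2 fold change was 0.17 ± 0.11 at 1 h and 0.76 ± 0.11 at 2 h (limma adjusted p of 0.47 and 0.0016), and 0.59 ± 0.11 between them (limma adjusted p = 0.016). In nuclei H3c4 was called at both times, at 0.52 ± 0.11 and 0.87 ± 0.11 (-0.16 and 0.29 on the deposited scale), and its step from 1 to 2 h, 0.35 ± 0.11, did not pass.

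H3c8 was read in mitochondria at 12.3 and 11.6 RPM, then 9.79 and 10.7 RPM, then 14.2 and 14.7 RPM, with 0.10 ± 0.13 at 1 h, 0.64 ± 0.13 at 2 h and 0.54 ± 0.13 between them (limma adjusted p = 0.038). H3c13, H3c6 and H3c1 had the highest levels per length in the family, at 51.5, 41.6 and 36.1 RPM per kb. H3c13 and H3c1 were called at 2 h in mitochondria at 0.82 ± 0.16 and 0.68 ± 0.19. In nuclei H3c13 was called at both times, at 0.80 ± 0.16 and 0.83 ± 0.16, and H3c1 at neither, at 0.63 ± 0.19 and 0.52 ± 0.19. H3c6 was called at 2 h in mitochondria (1.14 ± 0.27) and did not pass in nuclei (0.91 ± 0.27). H3c10, with the largest 2 h change of the 46 genes in mitochondria (1.52 ± 0.75), did not pass, and its reads in every library are given further on.

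Of the 10 genes of H4, 7 rose by 1 h and 9 by 2 h in mitochondria, and 3 and 6 in nuclei. The deposited scale gave 8 lower and 0 higher in nuclei at 1 h and 4 lower and 2 higher at 2 h. Beside these, 48% and 38.1% of all genes were called lower and 0.508% and 1.59% higher. H4c14, on chromosome 3 (chr3:96261682-96263311, minus strand), had the largest change of the family. Its RPM in mitochondria was 46.4 and 45.4 at 0 h, 68.4 and 63.7 after 1 h and 86.8 and 80.4 after 2 h. In nuclei it was 49.5 and 51.0 at 0 h, 55.1 and 52.4 after 1 h and 71.6 and 65.9 after 2 h, again without overlap between times. The log2 fold change was 0.87 ± 0.08 and 1.18 ± 0.08 in mitochondria (limma adjusted p of 9.9e-05 and 3.0e-06), and 0.77 ± 0.08 and 0.98 ± 0.08 in nuclei (limma adjusted p of 0.00026 and 1.4e-05). It also rose from 1 to 2 h in mitochondria, by 0.31 ± 0.08 (limma adjusted p = 0.044), with 0.21 ± 0.08 in nuclei. H4c14 shares 1.01% of its windows with another gene.

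H4c4 was called in all 4 comparisons, at 0.39 and 0.74 in mitochondria and 0.60 and 0.80 in nuclei, and H4c12 in 3, at 0.73 and 0.70 in mitochondria and 0.39 at 2 h in nuclei, where the deposited scale gave -0.002 for H4c4 at 1 h in nuclei and -0.15 for H4c12 at 2 h. H4c8 was not called at either time in either fraction, with values of 0.24 to 0.43 (-0.40 to 0.09 on the deposited scale). H4c2 was called in mitochondria at both times (0.30 ± 0.08 and 0.50 ± 0.08) and H4c9 at 2 h (0.31 ± 0.07), and on the deposited scale these were -0.05 for H4c2 at 1 h and -0.08 for H4c9 at 2 h. The H4 genes are known to encode the same protein.

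Of the 56 genes 12 were called in all 4 comparisons against 0 h, namely H1f0, H1f1, H1f2, H1f3, H1f4, H2ac20, H2bc8, H2bc13, H2bc15, H4c4, H4c6 and H4c14. The 22 genes called at 2 h in both fractions were 64.7% of the mitochondrial calls and 95.7% of the nuclear calls. Shares of all genes called in both fractions, or in all 4 comparisons, were not taken. These overlaps are therefore not read as a trait of histone genes. By position, 28 of 45 genes on chromosome 13 and 5 of 10 on chromosome 3 were called in mitochondria after 2 h, beside 18 and 4 in nuclei. By the stem-loop, 23 of the 37 genes with a match and 11 of the 19 without were called at 2 h in mitochondria. Their medians were 0.68 and 0.82. In nuclei 14 and 9 were called at 2 h, with medians of 0.43 and 0.39. Of the 19, 12 have transcripts annotated to no more than 3 bases past the coding part. The split thus cannot separate genes with the stem-loop from genes without it.

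In all 10 genes had a mean below 100 reads: H2ac1, H2ac7, H2ac12, H2ac18, H2ac19, H2ac21, H2bc1, H2bc21, H3c14 and H3c15. H2bc1, which in the mouse is made chiefly in testis, had 0 and 0 reads at 0 h, 3 and 4 after 1 h and 3 and 4 after 2 h in mitochondria, and 4 and 3, 0 and 0, and 6 and 6 in nuclei. It was called in 4 comparisons on these few reads, and no fold is given because the groups lie at or near 3 reads. They were mitochondria at 1 and 2 h against 0 h, nuclei at 2 h against 1 h, and the fractions at 1 h. H2ac18 was called at 2 h in mitochondria on 7 and 2 reads against 0 and 0. H2ac18 and H2ac19 share 89.4% and 100% of their windows with another gene, and H3c14 and H3c15 share 100% and 63.5%. In the deposited transcript table H2ac18 nevertheless stood at 11.4 to 63.3 FPKM and H3c15 at 37.8 to 66.5 FPKM, where they have at most 7 and 22 reads in the gene table, so the 2 tables count near-identical copies differently and the level of these genes is uncertain. Over all 56, 48 genes share more than 10% of their windows, and 15, 29, 11 and 18 of them were called at 1 and 2 h in mitochondria and nuclei. Of the other 8, 5 were called in each of these comparisons.

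After quantile normalization limma called at most 2 histone genes between mitochondria and nuclei at a time. At 0 h H2bc15 and H2bc7 were called higher in mitochondria, by 0.58 ± 0.08 and 0.50 ± 0.11 (limma adjusted p of 0.0043 and 0.038), beside 1.04% of all genes. At 1 h H2bc1 was the 1 gene called, on the few reads given above, beside 1.69% of all genes. At 2 h limma called 0 of 56 higher, also with voom weights, beside 0.731% of all genes and with 15 at an unadjusted p below 0.05. H1f0 did not pass at any time, at -0.12 ± 0.08, -0.16 ± 0.08 and -0.17 ± 0.08. Direct tests of whether the 1 h and 2 h effects differed between fractions, made with limma, called 0 of 56 in either direction, beside 0.327% and 0.00474% of all genes called higher. At an unadjusted p below 0.05 there were 4 higher and 4 lower for 1 h and 8 higher and 1 lower for 2 h, and voom weights called 1 and 0. For H1f0 these differences were -0.03 ± 0.11 and -0.05 ± 0.11, and the largest among the linker genes was 0.36 ± 0.09 for H1f4 at 2 h (limma adjusted p = 0.19). Of the 46 genes with a mean of 100 reads, 36 had a larger 2 h value in mitochondria than in nuclei. The share of all genes with a larger value in mitochondria was not taken, so this count is not read as a trait of histone genes. The comparison of fractions depends on the scale: on the deposited scale 1, 20 and 14 of the 56 were called higher in mitochondria at 0, 1 and 2 h and 3, 0 and 0 lower (0.863%, 7.17% and 1.21% of all genes higher, 5.67%, 1.14% and 1.98% lower), and after median centring 22, 13 and 29 were called higher (12.7%, 8.5% and 9.92% of all genes). How pure the fractions were was not tested.

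**Figure D4:**
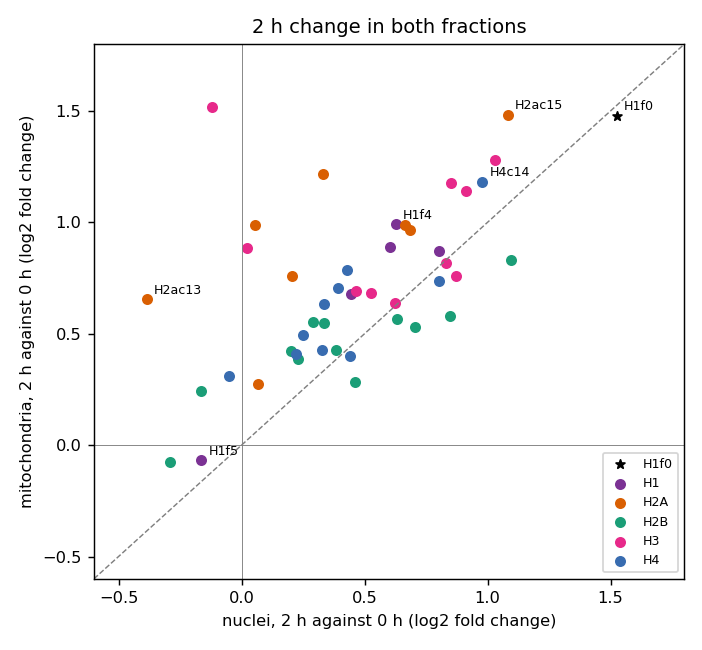
Log2 fold change from 0 to 2 h in mitochondria (y axis) against nuclei (x axis), after quantile normalization, for the 46 histone genes with a mean of 100 reads or more; the dashed line marks equal change. H1f0 lies near the line at 1.53 in nuclei and 1.48 in mitochondria, and 36 of the 46 points lie above it. The share of all genes above the line was not taken.

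Differences between replicates are given by family. Of 47 histone genes with a mean of 50 reads, 17 were higher in replicate 2 than in replicate 1 in all 6 groups, beside 1.4% of all 10134 genes with that many reads. They were 7 of 9 H2A genes, 9 of 10 H3 genes and 1 of 12 H2B genes, with none of H1 or H4. H3c10 shares 93.9% of its 50-base windows with other genes, so part of its reads may belong to a copy. Its reads were 65 and 107 in mitochondria at 0 h, 91 and 189 after 1 h and 163 and 288 after 2 h. In nuclei its reads were 155 and 282 at 0 h, 65 and 195 after 1 h and 72 and 228 after 2 h. The second library was the higher in each pair, by a mean log2 ratio of 1.03, and the median ratio was 0.49 for H2A and 0.34 for H3, but -0.04 for H1, 0.05 for H4 and 0.10 for H2B. Across the 47 genes this ratio went with GC content of the annotated transcripts with Pearson's r = 0.44, a description over genes that share their libraries and near-identical sequence. The median GC content was 65.1% for H2A, 60.1% for H3 and 54.5% for both H1 and H4, and its part in the difference was not tested.

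**Figure D5:**
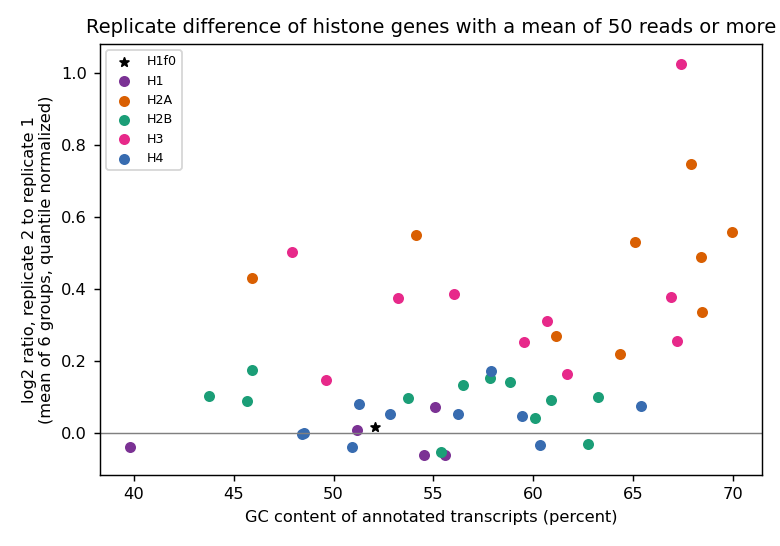
Mean log2 ratio of replicate 2 to replicate 1 over the 6 groups (y axis, quantile normalized) against the GC content of annotated transcripts in percent (x axis), 1 point per histone gene with a mean of 50 reads or more. Genes of H2A and H3 lie above 0, up to 1.03 for H3c10, while H1, H4 and most H2B genes lie near 0.

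The deposited transcript table, in FPKM (fragments per kb of transcript and 1000000 fragments), held 50 transcripts of 49 of these genes in 11 libraries. H1f0 stood at 12.8 and 11.7 FPKM at 0 h, 20 and 20.1 after 1 h and 26.3 and 28.1 after 2 h in mitochondria. In nuclei it stood at 14.5 and 14.6 FPKM at 0 h, 18.1 at 1 h in the 1 library used, and 27.4 and 28.9 at 2 h. On log2(FPKM + 1), which understates the change of low transcripts, its 2 h change was 1.09 ± 0.10 in mitochondria and 0.91 ± 0.10 in nuclei (limma adjusted p of 0.0080 and 0.0069), where the median of all transcripts was -0.33 and -0.49. Of the 49 transcripts tested, 9 were called higher and 1 lower at 2 h in mitochondria, beside 0.904% and 7.75% of all transcripts, and 4 higher and 4 lower in nuclei, beside 0.861% and 18.5%. H4c14, H4c4 and H2bc15 were called higher in both, and H1f5 was called lower in both, at -0.42 ± 0.10 and -0.64 ± 0.10 on a scale that keeps the general fall.

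The genes that make and remove histone mRNA were read beside the shares of all genes given above, which at 2 h were 4.66% higher and 6.78% lower in mitochondria and 4.65% higher and 5.55% lower in nuclei. Of 18 matched genes listed for making histone mRNA, mainly for its 3′ end formation, 2 rose at 2 h in mitochondria. In nuclei 1 rose and 1 fell at 2 h, and the medians in mitochondria and nuclei were 0.09 and 0.01. The list also holds genes of other steps, such as Npat and Hinfp, which act in transcription of histone genes. At 1 h limma called 0 of 18 in either fraction (2 higher in mitochondria and 1 higher and 1 lower in nuclei at an unadjusted p below 0.05). Fip1l1, a subunit of the cleavage and polyadenylation machinery, had 0.34 ± 0.08 and 0.38 ± 0.08 at 2 h, both called, and -0.05 and -0.20 on the deposited scale. Ncbp2, of the nuclear cap-binding complex, fell by 0.37 ± 0.08 in nuclei at 2 h. Of 10 decay factors, 1 rose at each time and 1 fell at 2 h in mitochondria, and in nuclei 3 fell at 2 h while limma called 0 at 1 h (3 lower at an unadjusted p below 0.05). Eri1, the exonuclease that trims the histone stem-loop, rose in mitochondria by 0.55 ± 0.09 at 1 h and 0.41 ± 0.09 at 2 h, with 0.23 and 0.04 on the deposited scale. Xrn1, the 5′ to 3′ exonuclease, fell at 2 h by 0.54 ± 0.10 in mitochondria and 0.43 ± 0.10 in nuclei. Of 29 S phase and G1/S genes, limma called 0 at 1 h in mitochondria (8 higher and 2 lower at an unadjusted p below 0.05) and 1 rose in nuclei. At 2 h 2 rose and 3 fell in mitochondria and 3 rose and 1 fell in nuclei, with medians of 0.04 to 0.09 over the 4 comparisons against 0 h. Cdt1, a replication licensing factor, rose by 0.47 ± 0.08 in mitochondria and 0.76 ± 0.08 in nuclei at 2 h. On the deposited scale these values of Cdt1 were 0.085 and 0.16, neither called, and at 1 h in nuclei its 0.39 turned to -0.31, called lower (limma adjusted p = 0.01). On that scale the medians of these lists were negative in every comparison against 0 h, from -0.60 to -0.25 for the S phase genes.

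Of 12 further histone genes, listed mainly as variants made outside replication, 3 rose by 1 h and 4 by 2 h in mitochondria. In nuclei 3 rose and 1 fell at each time. Whether each of the 12, H2aw and H4f16 among them, is made outside replication was not tested. H3f3b, 1 of the genes of H3.3, rose by 1.08 ± 0.08 by 1 h and 1.31 ± 0.08 by 2 h in mitochondria, and by 0.90 ± 0.08 and 1.15 ± 0.08 in nuclei. On the deposited scale it was called higher in mitochondria at both times and in nuclei at 2 h (0.63), but not in nuclei at 1 h (0.25). H2aw rose at 2 h by 1.15 ± 0.11 in mitochondria and 1.31 ± 0.11 in nuclei. Neither was called between 1 and 2 h in mitochondria, at 0.23 ± 0.08 and 0.36 ± 0.11, and how they differ from H1f0 in that step was not tested. Of 22 histone chaperones, 3 rose at 1 h in mitochondria, limma called 0 in nuclei (2 higher and 3 lower at an unadjusted p below 0.05), and 3 rose and 3 fell at 2 h in each fraction. Ncl, the gene of nucleolin, was called in mitochondria at 0.39 ± 0.04 and 0.53 ± 0.04, where the deposited scale gave -0.07 and -0.11.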

How the data were processed

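Per the file headers, the gene table is a SeqMonk probe report on whole gene spans, and the authors deposited log2 values of reads per 1000000 (RPM) per library. HISAT2, edgeR and StringTie, with the builds GRCm38 and mm10, are listed without roles or versions per the submitters' processing notes. Of the table's 35373 entries, 52 were repeats, which left 35321 genes. The deposited values gave whole reads, within 0.05 read, for 99.9972% to 100% of genes per library. The transcript table holds FPKM values that the authors deposited for 11 of the 12 libraries, and 11 further columns of per-sample values were not used.

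Genes with more than 0.9 reads in at least 2 libraries were tested (21078). After quantile normalization, limma 3.58.1 in R 4.3.3 was fitted to 6 group means over all 12 libraries, with trended and robust variances, 11 contrasts and Benjamini-Hochberg adjustment over all genes tested at a threshold of 0.05. FPKM values were tested with limma as log2(FPKM + 1) over 6856 transcripts with an FPKM of 1 or more in at least 2 libraries. The fits were tested on simulated data. Total reads of 30260000 to 42290000 set the precision, and intervals cover counting error only, since reads without molecular identifiers are not independent molecules.

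The members and lists were chosen with earlier results of these data known. Named genes are H1f0, the 3 of highest RPM per kb in each family, the 2 of smallest p in each comparison, all called genes where fewer than 5 were, and the 2 of smallest p of each companion list. The other genes named by value (H1f2, H1f3, H2bc11, H3c10 and H2ac18) were chosen after their values were seen. Shared sequence was taken as 50-base windows of GENCODE M21 transcripts, and promoter windows from RefSeq (GRCm38.p6). Same-numbered libraries correlated at -0.742 to 0.748 in their deviations from group means, so replicate numbers were not taken as pairs. Whether they are linked for the H2A and H3 genes that were higher in replicate 2 throughout was not tested.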

Additional observations from a re-analysis of the deposited data

How the results depend on the processing

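Counts of the 56 genes called higher are given in the order 1 h and 2 h against 0 h and 2 against 1 h in mitochondria, the same in nuclei, and mitochondria against nuclei at 0, 1 and 2 h, where the reported values are 20, 34, 4, 16, 23, 2, 2, 1 and 0. The deposited scale gave 10, 20, 5, 3, 8, 6, 1, 20 and 14 higher, 2, 2, 0, 20, 12, 0, 3, 0 and 0 lower, and 16 higher for the difference of the 1 h effects. Of all genes, 7.46% were called higher for that difference on this scale. From 1 to 2 h 1.23% of all genes were called higher in mitochondria and 2.11% in nuclei. Median centring gave 19, 30, 4, 27, 22, 2, 22, 13 and 29 higher, 1 and 3 lower from 1 to 2 h in mitochondria and nuclei, and 1 higher and 2 lower for the 1 h effects. Beside these, from 1 to 2 h 1.88% and 1.27% of all genes were called higher and 5.39% and 6.05% lower. For the 1 h effects 0.332% were higher and 3.28% lower. Scaling to reads inside genes gave 20, 34, 5, 13, 23, 3, 2, 2 and 9. Beside these, 1.98% and 1.38% of all genes were higher from 1 to 2 h, and 2.04%, 2.18% and 1.55% between fractions. Shares of all genes are not given for the settings that follow, so their counts show only how the calls moved with the setting. No filter gave 11, 18, 0, 6, 12, 1, 1, 1 and 0, with 1 higher for the 1 h effects, and a filter of 10 reads gave 20, 32, 7, 20, 24, 2, 6, 0 and 7, with 1 higher and 1 lower. log2(RPM + 0.5) gave 19, 32, 5, 17, 24, 2, 3, 0 and 0, and voom weights 15, 30, 3, 11, 24, 2, 1, 1 and 0, with 1 higher for the 1 h effects. Variances without trend gave 11, 19, 0, 5, 12, 1, 0, 1 and 0. A term for the split of libraries gave 24, 35, 7, 21, 26, 5, 3, 2 and 4, with 1 lower for the 1 h and 1 higher for the 2 h effects. The larger side of that split gave 0 except 2 at 2 h in mitochondria, and only the groups compared gave 0 except 2 at 2 h in nuclei, with fewer libraries in both. Leaving out 1 library gave 10 to 22, 19 to 36, 0 to 5, 6 to 20, 11 to 26, 0 to 2, 0 to 2, 0 to 1 and 0 to 2. Replicate numbers were not taken as pairs, but 17 of 47 histone genes were higher in replicate 2 in all 6 groups, beside 1.4% of all genes. The replicate block within a fraction gave 23, 43, 7, 20, 29, 1, 3, 0 and 1, and a replicate block over all libraries, chosen after seeing the data, gave 25, 43, 9, 22, 29, 2, 5, 1 and 3, with 1 lower from 1 to 2 h in nuclei.

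The deposited scale turned these values against 0 h: H4c2 (-0.052) at 1 h and H4c9 (-0.078) at 2 h in mitochondria, H1f5 (-0.60), H2bc18 (-0.41), H2bc8 (-0.062), H2bc3 (-0.29), H4c12 (-0.36), H4c4 (-0.002), H4c8 (-0.40), H3c4 (-0.16), H2bc7 (-0.10), H4c2 (-0.48) and H4c9 (-0.63) at 1 h in nuclei, and H2bc18 (-0.083), H2bc3 (-0.24), H4c12 (-0.15) and H4c2 (-0.32) at 2 h. It also turned H4c4 between fractions at 1 h (0.20) and the difference of the 1 h effects of H1f0 (0.34), and median centring turned H1f0 (0.20), H1f4 (0.36) and H4c14 (0.28) between fractions at 0 h. The cause was not tested. With 2 libraries a group, genes with few reads were the least certain.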
